A study of Mus musculus with 6 samples.

Results

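Of 10 genes of the p53 pathway, Sesn1 rose 2.86-fold and Mdm2 fell 2.23-fold in libraries labelled Men1 knockout from alveolar macrophages, and both are known targets of the same transcription factor. The 10 genes are Trp53, Mdm2, Mdm4, Sesn1, Ccng1, Zmat3, Trp53inp1, Phlda3, Btg2 and Gadd45a. They were found by gene symbol in the deposited expression table, which lists 15824 genes, and each symbol matched 1 row. All 10 passed the filter on low counts. Menin, the product of Men1, is a scaffold on which MLL complexes methylate histone H3. RNA was sequenced after polyA selection from macrophages that had been taken from mouse lungs at 8 weeks of age by flow cytometry, in 3 libraries of WT genotype and 3 libraries of KO genotype (Men1 knockout). The labels do not give the strain, the sex, the knockout allele or the promoter of any Cre driver. Nor do they state that each library is a different mouse. The p-values therefore measure only the spread between these libraries, which may be technical.

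The transcription factor p53, encoded by Trp53, is held at a low level in unstressed cells by the ubiquitin ligase Mdm2. Mdm2 marks p53 for degradation and is itself switched on by p53, which closes a negative feedback loop. When DNA damage or another stress releases p53, it switches on genes that stop the cell cycle, repair DNA, adjust metabolism or start apoptosis, and many of these genes also answer to other transcription factors.

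Totals per library lay between 19955242 and 20151990 counts, and Men1 had 594 to 639 counts in WT and 149 to 165 in KO libraries. Over all 11817 genes tested, 4060 were higher and 4119 lower in KO at an adjusted p under 0.05 (Benjamini-Hochberg, over the p-values of edgeR's quasi-likelihood test). On log2(TPM + 1), where the median of all genes shifted by -0.12 on the log2 scale, 2463 were higher and 5781 lower. The 4 Y-linked genes of the sex-linked list had 283 to 1530 counts in WT libraries and at most 2 in KO libraries, so Men1 genotype and this difference in Y-linked transcripts cannot be told apart in any result below. None of the 10 pathway genes lies on a sex chromosome. Of the 15 alveolar macrophage markers listed, 13 were in the table, and they gave a mixed picture. Fabp5 (28363 to 29182 counts per library), Marco (3493 to 22754), Atp6v0d2, Itgax, Fabp4, Pparg and Chil3 were expressed in every library, Siglecf had 23 to 47 counts, and Fabp1, Plet1, Ear1 and Ear2 had at most 4. Of the 9 tested, 4 were higher (Fabp5, Trim29, Marco and Chil3) and 4 lower in KO (Atp6v0d2, Itgax, Pparg and Siglecf). Trim29 had 4 to 15 counts in WT libraries and 27 to 39 in KO libraries. The summed level was 1791 to 1803 CPM in WT and 2741 to 2819 CPM in KO libraries. Marco alone, at 172.3 CPM on average in WT and 1137.2 CPM in KO, carried most of that difference, so the sum does not describe the list. Of the 10 general macrophage markers, 8 were higher in KO (Csf1r 1.91-fold, Adgre1 2.55-fold and Mertk 2.99-fold among them) and none lower, and their summed level was 32642 to 33752 CPM in WT and 39293 to 39804 CPM in KO libraries. The summed level of 10 lymphocyte markers was 2.24 to 2.80 CPM in WT libraries and 10.4 to 11.1 CPM in KO libraries, and the part of these marker levels in the results was not tested. In bulk RNA, fewer cells that express a gene and less RNA per cell cannot be told apart.

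Sesn1 encodes sestrin 1, a stress-inducible protein that restrains the growth kinase complex mTORC1. Libraries held 1295, 1305 and 1310 Sesn1 counts in WT replicates 1 to 3, and 3577, 3553 and 3634 in KO replicates 1 to 3. The lowest KO library thus had more than 2 times the counts of the highest WT library. The level in CPM, the count scaled to library size, was 63.8 ± 0.286 (SD, n = 3) in WT and 182.7 ± 2.08 CPM (SD, n = 3) in KO. The log2 fold change was 1.52 (SE 0.0290, adjusted p = 3.6e-32 in edgeR's quasi-likelihood test). Counting Sesn1 itself, 164 of the 4060 genes called higher had a fold change at least as large. The gene spans chr10:41810574-41908436 of GRCm38.p6.

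Mdm2 moved the other way. It had 3370, 3477 and 3448 counts in WT replicates 1 to 3, and 1476, 1496 and 1464 in KO replicates 1 to 3. The groups were far apart compared with the spread within either. The level fell from 168.1 ± 2.73 to 75.3 ± 0.980 CPM (SD, n = 3 each). The change on the log2 scale was -1.16 with an SE of 0.0290 (adjusted p = 1.5e-28 in edgeR's quasi-likelihood test). Counting Mdm2 itself, 474 of the 4119 genes called lower fell by as much or more. The gene lies on the same chromosome as Sesn1, at chr10:117688875-117710758. The direction and the call of Sesn1 and of Mdm2 were kept in each of the 22 alternative settings run. Their log2 fold changes ranged from 1.36 to 1.53 and from -1.28 to -1.13.

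**Figure D1:**
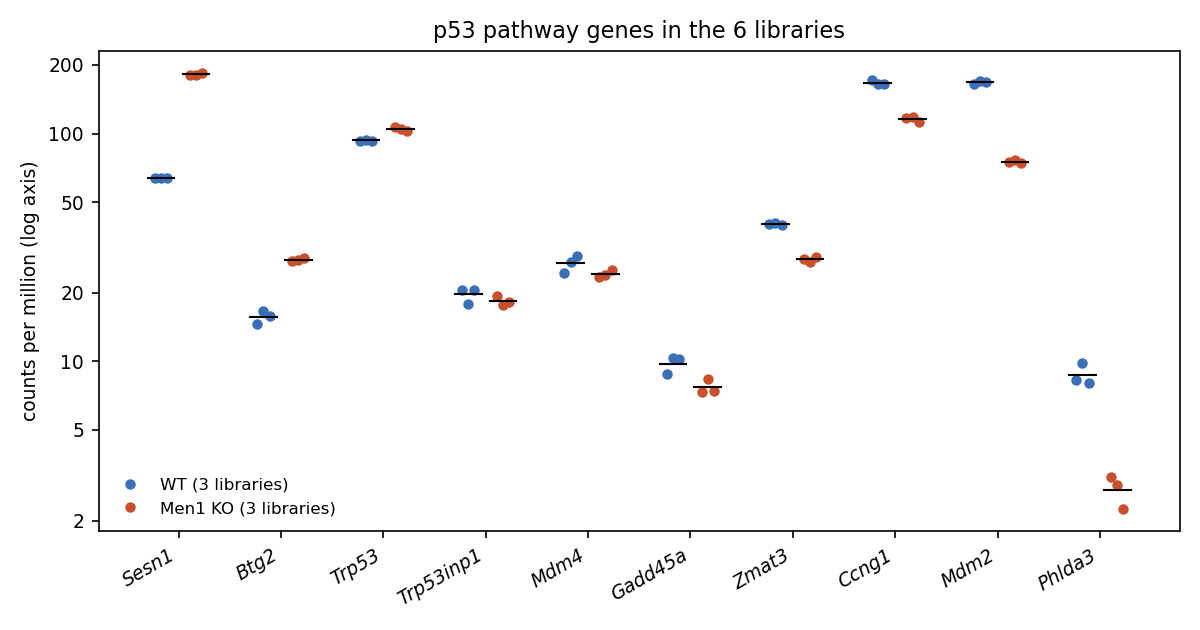
Level of each p53 pathway gene in the 6 libraries, as CPM on a log axis, with the genes ordered by fold change. Points are libraries (blue WT, red KO) and bars are group means. Sesn1 averages 63.8 CPM for WT against 182.7 CPM for KO, and Mdm2 168.1 against 75.3 CPM, while the points of Trp53inp1 and of Mdm4 overlap between the groups.

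The sequences just upstream of the start sites of this pair are shown because p53 acts through a known DNA element, the decamer half-site. It consists of 3 purines, a C, a pair of bases that are each A or T, a G and 3 pyrimidines, and it reads the same on both strands. Windows from RefSeq on GRCm38.p6, reaching from 250 bases before to 50 bases after a start site, were present for 8 of the 10 genes, all but Zmat3 and Trp53inp1. The stretches printed are the 250 bases before the start site, 5′ to 3′ on the gene's own strand, and hold no annotated exon. The half-site is in capitals. The Mdm2 stretch is chr10:117710759-117711008 (minus strand), before the first base of the gene. The Sesn1 stretch is chr10:41887189-41887438 (plus strand), before the internal start site, inside an intron of the longer transcript.
Mdm2: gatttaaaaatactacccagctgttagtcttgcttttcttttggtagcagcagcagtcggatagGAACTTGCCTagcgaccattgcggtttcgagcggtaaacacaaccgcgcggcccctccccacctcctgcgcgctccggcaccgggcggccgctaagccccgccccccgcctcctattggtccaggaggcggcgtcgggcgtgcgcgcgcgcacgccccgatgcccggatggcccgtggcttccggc
Sesn1: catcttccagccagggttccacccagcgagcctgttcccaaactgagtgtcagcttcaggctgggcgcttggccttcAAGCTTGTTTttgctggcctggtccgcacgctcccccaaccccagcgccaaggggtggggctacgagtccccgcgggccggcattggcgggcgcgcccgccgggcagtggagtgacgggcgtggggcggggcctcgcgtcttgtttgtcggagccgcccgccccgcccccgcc

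Each stretch holds 1 half-site, starting 186 bases before the Mdm2 start and 173 bases before the internal Sesn1 start. The window at the first Sesn1 start site held none. Among the 8 genes with a window, 5 had a half-site (Trp53, Mdm2, Sesn1, Ccng1 and Gadd45a), and 9.55% of the 27025 genes with a window had one. Both directions of change are among the 5, with Sesn1 and Trp53 higher and Mdm2, Ccng1 and Gadd45a lower. A match of letters is a description of the window and does not show binding. Sequence outside the windows, which includes most intron sequence of these genes, was not searched. The half-sites printed are therefore not shown to be the elements through which p53 acts on Mdm2 or Sesn1.

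The ratio of Mdm2 to Sesn1 counts within a library does not depend on how libraries are scaled to each other. It was 2.60, 2.66 and 2.63 in WT replicates 1 to 3, and 0.413, 0.421 and 0.403 in KO replicates 1 to 3. WT libraries thus held more Mdm2 than Sesn1 reads, and KO libraries held fewer. The mean log2 ratio was lower by 2.68 in KO, which is 6.39-fold, against SDs of 0.0170 (WT) and 0.0319 (KO), n = 3 each. The two-sided exact permutation test gave p = 0.1, the smallest value that 3 against 3 libraries can give. It gave the same p for each of the 5 ratios tested, and 0.1 after Benjamini-Hochberg adjustment over them. Mdm2 and Sesn1 had each separated the groups already, in opposite directions, so the outcome for their ratio was fixed in advance. The test therefore adds no support to the 2 single-gene results.

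The p53 gene itself and its inhibitors came next. Trp53 had 1889, 1911 and 1911 counts in WT replicates 1 to 3, and 2102, 2050 and 2010 in KO replicates 1 to 3. The groups did not overlap, but they lay close together. Its level rose from 93.3 ± 0.601 to 104.6 ± 2.15 CPM (SD, n = 3 each). The change on the log2 scale was 0.17 with an SE of 0.0301 (adjusted p = 9.6e-06 in edgeR's quasi-likelihood test). The call was lost on log2(TPM + 1), where the log2 difference was 0.03 (adjusted p = 0.371 in limma), when a biological coefficient of variation of 0.1 was assumed (0.289) and against a minimum fold change of 1.2. Adjusted p-values over all settings ran from 1.1e-06 to 1. Mdm2 counts per Trp53 count fell from 1.803 ± 0.0178 to 0.720 ± 0.0155 (SD, n = 3 each), which is 2.50-fold.

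Mdm4, a relative of Mdm2 that binds and inhibits p53 without strong ligase activity of its own, had 497, 557 and 593 counts in WT replicates 1 to 3, and 461, 469 and 495 in KO replicates 1 to 3. Scaled to library size, the WT and KO libraries overlapped. The level was 26.9 ± 2.30 CPM in WT against 24.2 ± 0.932 CPM in KO (SD, n = 3 each). The change on the log2 scale was -0.15 with an SE of 0.0580 (adjusted p = 0.0196 in edgeR's quasi-likelihood test). This call was lost in 9 of the 22 settings, among them those without WT replicate 2 (adjusted p = 0.0593), WT replicate 3 (0.184, log2 fold change -0.09), KO replicate 1 (0.0876) or KO replicate 2 (0.0608), and in DESeq2 (0.0871), within a range of 0.00138 to 1 over all settings. The ratio of Mdm2 to Mdm4 counts was 6.78, 6.24 and 5.81 in WT replicates 1 to 3, and 3.202, 3.19 and 2.96 in KO replicates 1 to 3, so it fell 2.01-fold with no overlap.

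**Figure D2:**
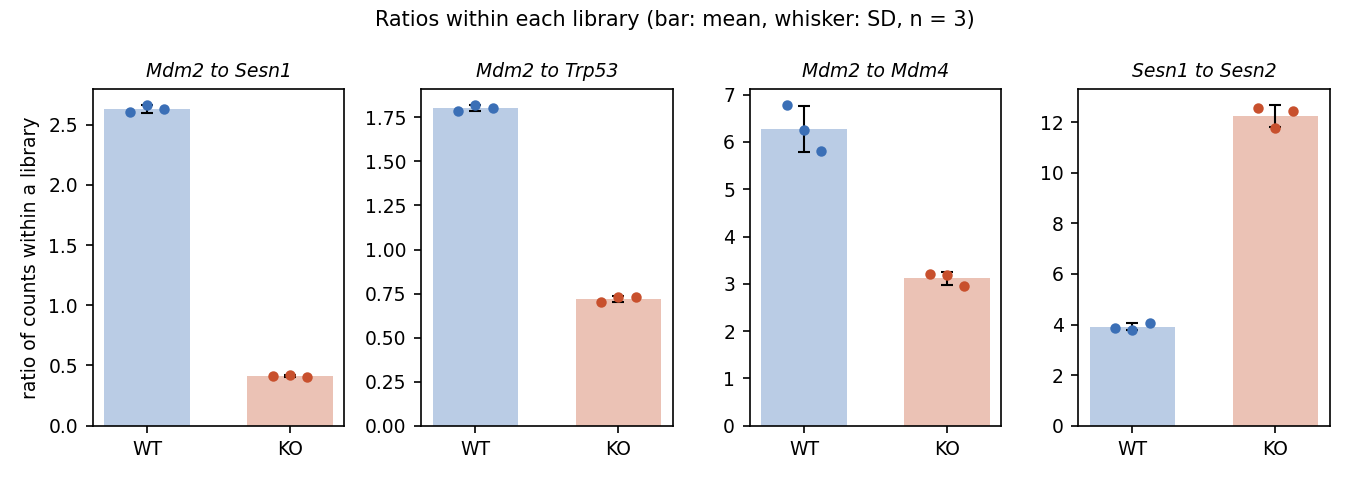
Ratios of counts of 2 genes within each library, for Mdm2 to Sesn1, Mdm2 to Trp53, Mdm2 to Mdm4 and Sesn1 to Sesn2. Points are libraries, bars are group means and whiskers are SDs (n = 3). The mean Mdm2 to Sesn1 ratio is 2.63 in WT and 0.412 in KO, and in none of the 4 panels do the libraries of the groups overlap.

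Among the remaining targets, Phlda3 had the largest fold change. It encodes a small lipid-binding protein that competes with the kinase Akt at the membrane. It had 168, 201 and 164 counts in WT replicates 1 to 3, and 61, 56 and 44 in KO replicates 1 to 3. Every KO library was below every WT library, in a gene with few reads. The level fell 3.18-fold from 8.71 ± 1.02 to 2.73 ± 0.441 CPM (SD, n = 3 each; log2 fold change -1.67, SE 0.128, adjusted p = 5.4e-14 in edgeR's quasi-likelihood test). The summed level of the 14 fibroblast markers moved the same way, from 100.3 to 103.5 CPM in WT libraries to 17.7 to 20.3 CPM in KO libraries. All 13 of those tested were called lower, beside 34.9% of all genes tested. Collagen and proteoglycan genes such as Col1a2 and Bgn had 29 to 52 counts left in KO libraries. The part of the fibroblast markers in the Phlda3 result was not tested.

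Btg2, an antiproliferative protein that recruits the mRNA deadenylation machinery, had 298, 337 and 323 counts in WT replicates 1 to 3. In KO libraries 1, 2 and 3 it had 542, 544 and 558 counts. All KO libraries were higher, and they differed less from each other than the WT libraries did. The level rose 1.78-fold from 15.6 ± 0.972 to 27.9 ± 0.470 CPM (SD, n = 3 each; log2 fold change 0.83, SE 0.0589, adjusted p = 5.2e-15 in edgeR's quasi-likelihood test). Gadd45a, a growth arrest and DNA damage protein that activates stress kinases, had 179, 210 and 210 counts in WT replicates 1 to 3, and 145, 164 and 145 in KO replicates 1 to 3. Every KO library was below every WT library, but the gap between the groups was narrower than the range within either. The level fell 1.27-fold from 9.78 ± 0.864 to 7.71 ± 0.580 CPM (SD, n = 3 each; log2 fold change -0.34, SE 0.0930, adjusted p = 0.00143 in edgeR's quasi-likelihood test). When a biological coefficient of variation of 0.1 was assumed, its adjusted p was 0.0536, within a range of 0.000242 to 0.190 over all settings. An annotated noncoding gene on the opposite strand, E230016M11Rik, overlaps a Gadd45a exon, and the sources used here do not say whether counting used strand.

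Handling or growth factor stimulation can switch on some genes within minutes. A list of such immediate early genes, which holds neither Btg2 nor Gadd45a, was read beside these genes. Of its 22 genes 21 were tested, with 7 higher, 11 lower and a median log2 fold change of -0.20. Over all genes tested, 34.4% were higher and 34.9% lower. The summed level of the list was 3119 to 3198 CPM in WT libraries and 2939 to 3007 CPM in KO libraries. The part of handling in the Btg2 and Gadd45a results was not tested.

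Ccng1 encodes cyclin G1, which brings the phosphatase PP2A to Mdm2. It had 3492, 3365 and 3385 counts in WT replicates 1 to 3, and 2307, 2320 and 2203 in KO replicates 1 to 3. It fell 1.44-fold, from 167.2 ± 3.56 to 115.9 ± 3.29 CPM (SD, n = 3 each), with no overlap between the groups. Its window held the closest p53 element of the 10 windows searched, with 2 decamers side by side and 1 letter off the consensus over both. Such a pair, starting 195 bases before the start site, was found in 29 of the 32851 windows (0.0883%). The stretch printed is chr11:40755437-40755536 (minus strand, GRCm38.p6), 250 to 151 bases before the start site, with the pair in capitals.
Ccng1: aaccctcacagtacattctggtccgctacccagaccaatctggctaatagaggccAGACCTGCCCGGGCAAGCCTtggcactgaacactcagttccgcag

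Zmat3, an RNA-binding zinc finger protein, fell by nearly the same factor as Ccng1. It had 816, 828 and 812 counts in WT replicates 1 to 3, and 552, 534 and 563 in KO replicates 1 to 3. The groups were well separated. The log2 fold changes of Ccng1 and Zmat3 were -0.53 (SE 0.0281) and -0.52 (SE 0.0459), with adjusted p-values of 1.6e-18 and 2.4e-12 in edgeR's quasi-likelihood test. Trp53inp1, a nuclear protein with roles in apoptosis and autophagy, did not pass the test. It had 418, 365 and 422 counts in WT replicates 1 to 3, and 380, 345 and 357 in KO replicates 1 to 3, and WT replicate 2 lay within the KO range. Its log2 fold change was -0.10 (SE 0.0645, adjusted p = 0.171 in edgeR's quasi-likelihood test). Without WT replicate 2 the adjusted p was 0.0367 and the log2 fold change -0.16, and over all settings the adjusted p ran from 0.0184 to 1.

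Counted together, 3 of the 10 genes were higher in KO (Sesn1, Btg2 and Trp53), 6 were lower (Phlda3, Mdm2, Ccng1, Zmat3, Gadd45a and Mdm4) and 1 did not pass. Of all 11817 genes tested, 34.4% were called higher, 34.9% lower and 69.2% in either direction, so a call alone sets no gene apart in these libraries. A change of at least 2-fold was called for Sesn1, Mdm2 and Phlda3, and for 8.20% of all genes tested. The median log2 fold change of the 10 genes was -0.25, and that of all genes tested was 0.00. The median size of the change, regardless of sign, was 0.52 for the 10 genes and 0.24 for all genes tested. The 10 genes were chosen with earlier results of these data known, so these comparisons with all genes do not set the list apart.

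**Figure D3:**
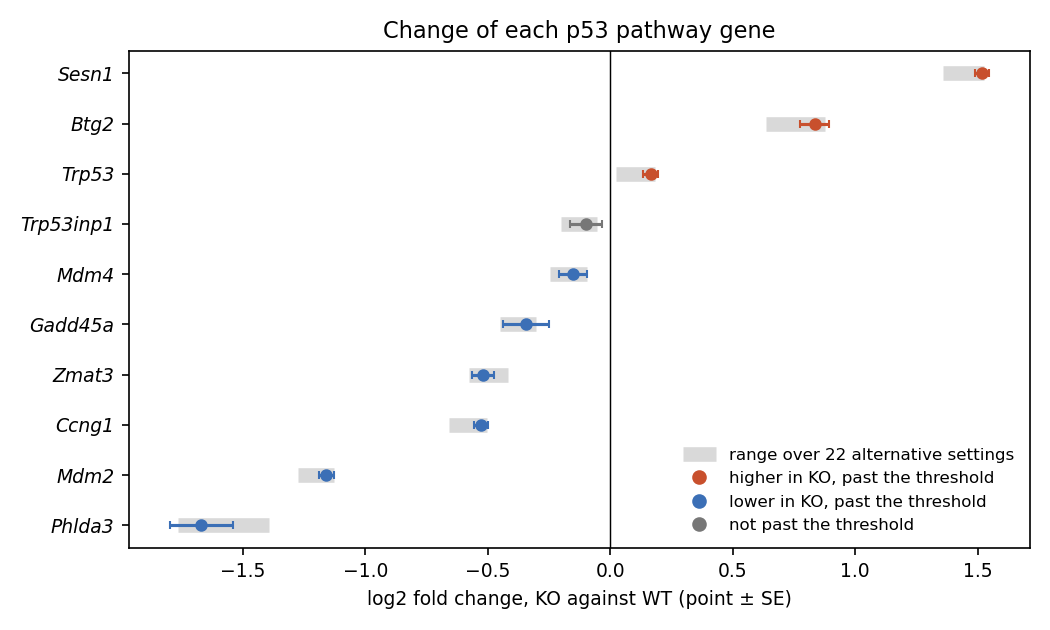
Log2 fold change of KO against WT for each p53 pathway gene. Points with whiskers are the fitted value ± SE, coloured by call, and grey bars span the lowest and highest value over the 22 alternative settings. Sesn1 (1.52) and Phlda3 (-1.67) lie at the ends, and no grey bar crosses 0.

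The spread between libraries differed among the 10 genes. The SD of log2 CPM within groups was 0.0125 for Sesn1, 0.0212 for Mdm2 and 0.0219 for Trp53. It was 0.200 for Phlda3 and 0.118 for Gadd45a, the members with the fewest counts, and the median over all genes tested was 0.0621.

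Levels of different genes were compared on the deposited FPKM scale (fragments scaled by transcript length and by library size). In WT libraries Trp53 was the most abundant of the 10, at 65.8 ± 0.286 FPKM, followed by Mdm2 at 62.2 ± 0.695 FPKM, Ccng1 at 54.1 ± 1.32 FPKM and Sesn1 at 28.4 ± 0.107 FPKM (SD, n = 3 each). In KO libraries Sesn1 led at 78.3 ± 0.744 FPKM, followed by Trp53 at 70.9 ± 1.77 FPKM, Ccng1 at 36.0 ± 1.07 FPKM and Mdm2 at 26.8 ± 0.290 FPKM (SD, n = 3 each). Sesn1 thus moved from rank 4 to rank 1 and Mdm2 from rank 2 to rank 4. The other 6 genes stayed at or below 11.2 FPKM on average. Neighbouring genes in this order did not overlap between libraries, except Btg2 with Zmat3 and Mdm4 with Trp53inp1 in WT, and Zmat3 with Trp53inp1 and Trp53inp1 with Mdm4 in KO. Phlda3 dropped from rank 6, at 7.83 ± 0.896 FPKM, to the lowest of the 10, at 2.36 ± 0.390 FPKM.

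**Figure D4:**
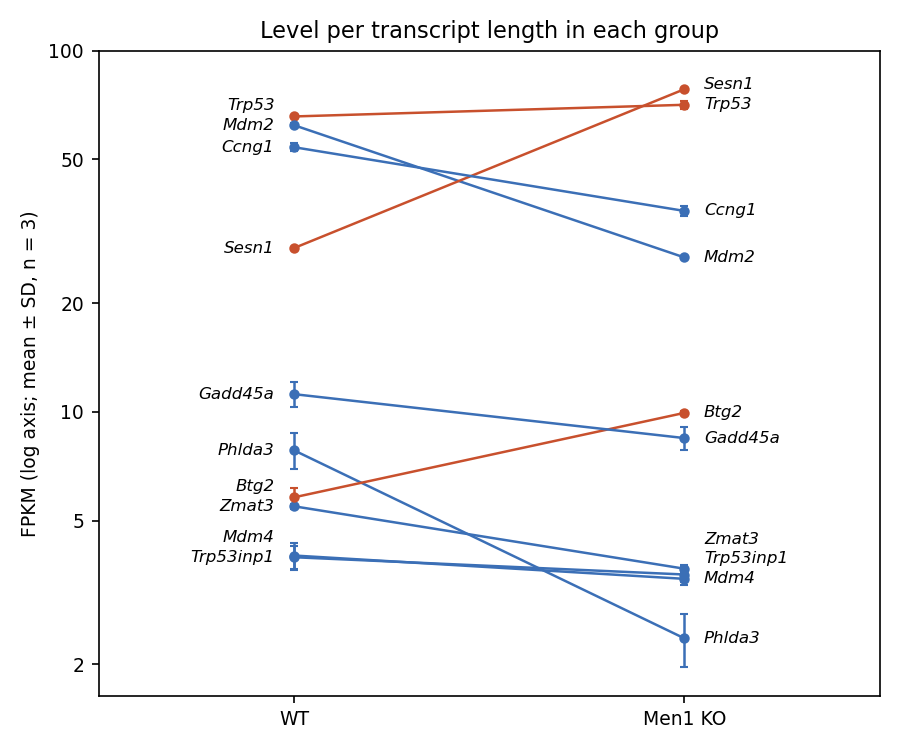
Mean FPKM of the 10 p53 pathway genes in WT and KO libraries on a log axis, with whiskers for the SD (n = 3) and 1 line per gene, red where the KO mean is higher and blue where it is lower. The Sesn1 line rises from 28.4 to 78.3 FPKM and crosses those of Ccng1, Mdm2 and Trp53.

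Relatives of the members did not all share their direction. Sesn2, the sestrin best known as a leucine sensor, had 335, 344 and 323 counts in WT replicates 1 to 3, and 285, 302 and 292 in KO replicates 1 to 3. Its log2 fold change of -0.13 (SE 0.0665) did not pass, with an adjusted p of 0.0747 in edgeR's quasi-likelihood test. The ratio of Sesn1 to Sesn2 counts rose from 3.91 ± 0.135 to 12.3 ± 0.427 (SD, n = 3 each), and on the FPKM scale that ratio was 3.96 ± 0.136 in WT and 12.5 ± 0.432 in KO. Sesn3 averaged 1.29 ± 0.226 CPM in the WT group against 1.17 ± 0.321 CPM in the KO group (SD, n = 3 each). Sesn1 thus accounted for most sestrin transcripts per length in both groups.

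Of 14 relatives listed, 11 were tested, and 3 were higher and 4 lower in KO, beside 34.4% higher and 34.9% lower over all genes tested. The share called, 63.6%, is near the 69.2% over all genes tested, so these counts are no result about the list. Trp53inp2, an autophagy regulator, rose 1.254-fold, the antiproliferative gene Btg1 rose 1.18-fold and the cyclin gene Ccng2 rose 1.499-fold from 14.1 ± 1.0005 to 21.2 ± 2.16 CPM (SD, n = 3 each). Cyclin G1 and cyclin G2 transcripts therefore moved in opposite directions. The Btg1 call was lost when a biological coefficient of variation of 0.1 was assumed (adjusted p = 0.115 in edgeR) and against a minimum fold change of 1.2 (adjusted p = 1), and its adjusted p over all settings ran from 2.4e-13 to 1. Btg3 fell 1.37-fold while Btg1 and Btg2 rose, and an exon of Btg3 overlaps Cxadr on the opposite strand. Gadd45b, with a log2 fold change of 0.12 (adjusted p = 0.0632 in edgeR's quasi-likelihood test), did not pass. Transcripts of the p53 homologues Trp63 and Trp73 had at most 1 count in any library, where the limit that a count of 0 allows is 3 counts, or 0.146 to 0.153 CPM (counting error only).

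Of 56 further targets listed, 52 were tested, and 16 were higher and 24 lower in KO, with a median log2 fold change of -0.14, beside 34.4% higher and 34.9% lower over all genes tested. When a biological coefficient of variation of 0.1 was assumed, the counts were 9 higher and 20 lower, and for changes tested against a minimum of 1.2-fold they were 7 and 17. Genes for cell cycle arrest were mostly lower, with 7 of 9 tested lower and 2 higher. Cdkn1a, the cell cycle inhibitor p21 and the best known p53 target, fell 1.63-fold from 216.2 ± 5.85 to 133.0 ± 2.10 CPM (SD, n = 3 each). An exon of the annotated gene AC167363.2 overlaps Cdkn1a on the opposite strand. Plk2, a stress-responsive polo-like kinase, fell 2.65-fold from 90.9 ± 2.23 to 34.3 ± 1.27 CPM. Sfn (14-3-3 sigma) fell 5.59-fold from 4.49 ± 0.414 to 0.798 ± 0.162 CPM, and Gtse1, a mitotic protein that restrains p53, fell 1.67-fold (all n = 3, SD). The Sfn change depended on the scale, from -2.59 to -1.51 on the log2 scale over the settings, the latter on log2(FPKM + 1), and its call was kept in all 22. The proliferation markers fell alongside, with 12 of 12 lower, a median log2 fold change of -1.38 and a summed level of 976.8 to 985.4 CPM in WT and 398.4 to 403.9 CPM in KO libraries. Their part in the changes of the arrest genes was not tested.

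Of 15 apoptosis targets tested, 7 were higher and 4 lower, beside 34.4% higher and 34.9% lower over all genes tested. The share called, 73.3%, is near the 69.2% over all genes tested. Fas, the death receptor, rose 1.82-fold from 9.53 ± 0.621 to 17.4 ± 1.12 CPM, and Susd6, a membrane protein gene, rose 1.41-fold from 169.9 ± 2.74 to 239.1 ± 6.36 CPM (SD, n = 3 each). Pmaip1, which encodes the BH3-only protein Noxa, fell 2.31-fold from 11.2 ± 0.5003 to 4.86 ± 0.238 CPM. The X-linked receptor gene Eda2r had 14 to 18 counts in WT and 7 or 8 in KO libraries, and its call (log2 fold change -1.03, adjusted p = 0.0075 in edgeR's quasi-likelihood test) was lost in DESeq2 (0.0675) and on median-centred log2(TPM + 1) (0.275 in limma). Over all settings that gave it a value, its adjusted p ran from 0.00412 to 0.275.

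DNA repair targets were lower in 6 of 10 cases and higher in 2, with small changes. The sliding clamp gene Pcna fell 1.23-fold, and the translesion polymerase genes Polk and Polh fell 1.46-fold and 1.30-fold. Against a minimum fold change of 1.2 the Pcna call was lost (adjusted p = 0.0639 in edgeR), the highest of its adjusted p-values over all settings, of which the lowest was 1.0e-32. Metabolic and stress targets were higher in 5 of 18 cases and lower in 7, beside 34.4% higher and 34.9% lower over all genes tested, so their count of calls is near the background. Pltp, the phospholipid transfer protein gene, rose 3.71-fold from 44.5 ± 1.76 to 165.1 ± 3.73 CPM, although an exon of Ctsa overlaps it on the opposite strand. Dram1, a lysosomal autophagy regulator, rose 1.86-fold and Dcxr, a carbonyl reductase, rose 1.76-fold. The stress cytokine gene Gdf15 fell 2.87-fold from 16.1 ± 1.16 to 5.60 ± 0.245 CPM (SD, n = 3 each). Adjusted p-values of the genes named in this paragraph ran from 3.2e-33 for Pltp to 2.9e-07 for Polh in edgeR's quasi-likelihood test.

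Of 24 regulators of p53 tested, 8 were higher, 9 lower and 7 not called, with a median log2 fold change of -0.04. These counts are near the shares over all genes tested (34.4% higher and 34.9% lower), so the counts are no result about the list. Aurka, a mitotic kinase that also phosphorylates p53, fell 2.27-fold from 38.7 ± 1.35 to 17.1 ± 0.641 CPM (SD, n = 3 each) and was the only member of this list past a 2-fold change. Hipk2, a p53 kinase, fell 1.29-fold. Daxx, a chaperone that binds Mdm2, rose 1.23-fold, and Rpl11, a ribosomal protein that can inhibit Mdm2, rose 1.13-fold. The Daxx call was lost against a minimum fold change of 1.2 (adjusted p = 0.178 in edgeR), and its adjusted p over all settings ran from 8.0e-10 to 0.178. The Rpl11 call was lost on log2(TPM + 1), where its adjusted p was 0.165 in limma. It was also lost when a biological coefficient of variation of 0.1 was assumed (adjusted p = 0.263 in edgeR) and against a minimum fold change of 1.2. Over all settings the adjusted p of Rpl11 ran from 5.7e-13 to 1.

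**Figure D5:**
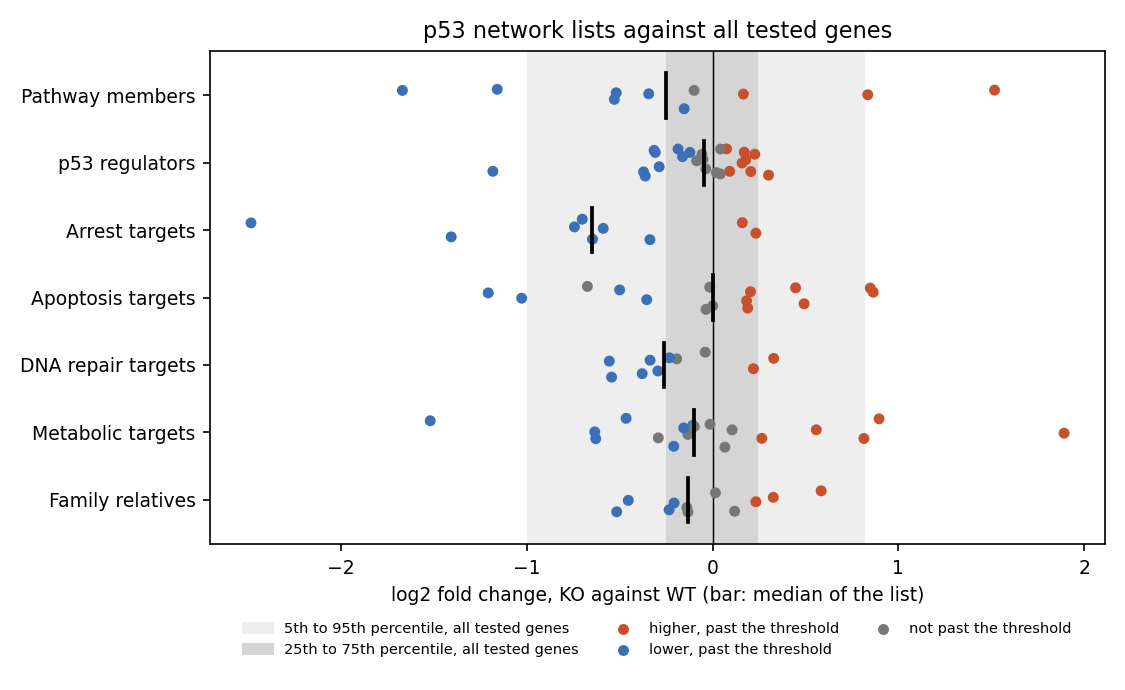
Log2 fold changes of KO against WT for the tested genes of 7 lists. Points are genes coloured by call, black bars are list medians, and grey bands mark the 25th to 75th (-0.24 to 0.24) and 5th to 95th (-0.99 to 0.81) percentiles of all genes tested. Genes of each list lie on both sides of 0, and the arrest targets have the lowest median.

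The genes whose pattern over the 6 libraries was most like that of Mdm2 or Sesn1 were sought among the 9577 other genes tested with a mean of at least 5 CPM. Likeness was the root mean square difference of centred log2 CPM, over 6 libraries in 2 groups, so it mostly ranks genes by a similar fold change. Nearest to Mdm2 were Rragd (0.0361), Pdgfb (0.0400) and Ckap2l (0.0402), which encode a Rag GTPase, a growth factor chain and a mitotic spindle protein. Rragd averaged 37.8 CPM in the WT group against 16.6 CPM in the KO group. Nearest to Sesn1 were Pilra (0.0208), Slc7a7 (0.0277) and Prdx5 (0.0308), which encode an inhibitory receptor, an amino acid transporter subunit and a peroxiredoxin. Pilra averaged 64.3 CPM in the WT group against 184.4 CPM in the KO group.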

How the data were processed

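Per the labels, polyA-selected RNA of sorted mouse alveolar macrophages was sequenced in 3 WT and 3 KO libraries. The submitters' processing notes name HISAT, Bowtie2 and build GRCm38.p6, with no role or order. The sources used here name neither the counter nor the annotation. Values deposited by the authors are expected counts (estimated read counts, not whole for 8.66% to 9.19% of genes), which were rounded here. FPKM and TPM values were also deposited by the authors, per the file headers.

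The test of KO against WT was the two-sided quasi-likelihood test of edgeR 4.0.16 in R 4.3.3, after filterByExpr and TMM scaling, with group as the only term and Benjamini-Hochberg adjustment over 11817 tested genes and a threshold of 0.05. The SE is the size of the log2 fold change divided by the square root of F. CPM values use TMM-adjusted library sizes. The test was checked on simulated data in which few genes changed, in random directions and with the same variation for all genes. These libraries differ from that setting, since 69.2% of genes tested were called, so the check does not cover it. Alternatives used DESeq2 1.42.0, limma 3.58.1 on counts and on log2(FPKM or TPM + a pseudocount of 1 or 0.1), other scaling and filters, a replicate block, an assumed variation, a minimum fold and left-out libraries. Within a group, libraries differed beyond counting noise (chi-square per gene 1.37 to 1.60). Gene identifiers of 15774 genes matched RefSeq, which gave coordinates and start-site windows. GENCODE M21 on the same build gave exons. Strand use in counting is unknown.

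The pathway genes and the lists were chosen with earlier results of these data known. Of each further list, genes changed at least 2-fold are named and then those with the smallest adjusted p, to 4 per list, along with the 3 genes most like Mdm2 and the 3 most like Sesn1. Sesn2, Sesn3, Gadd45b, Trp63, Trp73 and the marker genes were named after their values were seen. A further gene that falls under the naming rule is not reported here.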

Additional observations from a re-analysis of the deposited data

How the results depend on the processing

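Sesn1, Mdm2, Phlda3, Btg2, Ccng1 and Zmat3 kept their direction and call in all 22 settings run, and none of the 10 pathway genes changed sign in any. The counts of 3 higher and 6 lower were 2 to 3 and 4 to 7. The count of all genes called, 8179, was 4406 when a biological coefficient of variation of 0.1 was assumed (1.66% was estimated), and 3771 against a minimum fold change of 1.2. Further p53 targets called higher, 16, were 9 and 7 in these settings. DESeq2 called 7037 genes. The Mdm2 to Sesn1 log2 ratio stayed at -2.68 on FPKM and TPM.

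Same-numbered libraries are not shown to be paired. Their deviations correlated at 0.103, 0.0614 and 0.0821, against -0.0650 to -0.0142 for libraries of different numbers. Each library thus correlated best with its own number, though weakly. With a replicate block 8321 genes were called, and the pathway counts were 3 and 6. A TPM fit centred on each library's median was chosen after seeing the data, and Mdm4 did not pass there (adjusted p = 0.215 in limma). Eda2r has no value with X and Y genes left out or with a minimum of 1 CPM in 3 libraries. Low counts limit the precision of Phlda3, Gadd45a, Sfn and Eda2r.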
